A study of Mus musculus with 57 samples.

Results

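Mouse embryonic stem cells (ESCs) that leave pluripotency in retinoic acid (RA) pass through a stage at which some cells carry a neuroectoderm marker, some an endoderm marker and some both. The RNA of FOXA2-expressing cells was compared here according to whether the same cells also expressed Sox1. The cells came from a reporter line in which EGFP replaces 1 Sox1 allele and mCherry is fused to the C-terminus of FOXA2. All were cultured in N2B27 with 1 uM RA and collected on day 4 (D4). Live cells were sorted with gates drawn against wild-type R1 cells, and the same number of cells went into each library.

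The study followed single ESCs by time-lapse imaging and multiplexed protein imaging, and then sequenced sorted reporter populations at several days of differentiation. Its RNA series holds 57 libraries of 19 conditions, and 6 of them carry the comparison described below. These are 3 biological replicates of Sox1+FOXA2+ cells and 3 of Sox1-FOXA2+ cells, with the same genotype, medium and day in both groups. The 3 Sox1+FOXA2- and 3 Sox1-FOXA2- libraries of the same day give the levels of the other sorted cells.

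FOXA2 is a pioneer transcription factor of the endoderm, the notochord and the floor plate of the neural tube. In the early embryo the primitive endoderm gives rise to visceral endoderm, which takes up and digests maternal protein, and to parietal endoderm, which lays down a thick basement membrane. RA drives both neural and extraembryonic endoderm differentiation in culture, depending on the state of the cells and on their neighbours.

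Depth was similar in the 2 groups. The Sox1+FOXA2+ libraries held 53917146, 24907988 and 43258801 counts and the Sox1-FOXA2+ libraries 37663759, 56755617 and 41800084, against a median of 39334117.5 over the 12 sorted D4 libraries. Genes with at least 1 count numbered 20732, 17482 and 24853 in the first group and 23123, 17477 and 21671 in the second. The shallowest library was Sox1+FOXA2+ replicate 2, which also had several members of the lists below at 0. Yet Sox1-FOXA2+ replicate 2, the deepest of the 12, had no more genes detected. Nor did replicate 2 of Sox1+FOXA2- cells (17421) or of Sox1-FOXA2- cells (16568). Mitochondrial genes took 6.11, 9.57 and 7.87% of the counts in Sox1+FOXA2+ libraries and 11.4, 8.39 and 11.9% in Sox1-FOXA2+ libraries, with overlapping ranges. Replicates were less alike among Sox1+FOXA2+ cells (pairwise r of 0.66 to 0.707) than among Sox1-FOXA2+ cells (0.796 to 0.856).

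The 2 FOXA2-positive populations sorted at D4 differed in their RNA. In cells without Sox1, several laminin and collagen IV chains, collagen-modifying enzymes and endocytic receptors stood many times above the level of Sox1+FOXA2+ cells. Some genes of protein export and folding, in lists chosen after values were seen, were higher there as well. The genes edgeR called higher in Sox1+FOXA2+ cells were a short list that included genes of the two-cell-like state and Nanog. No call of a higher gene was kept in all 13 other settings, Nanog was called in 5 of them, and DESeq2's Wald test called 608 genes higher. Relative to Sox1+FOXA2- cells, 0 genes were called by edgeR in Sox1+FOXA2+ cells, and 1531 had an unadjusted p below 0.05. In the same comparison DESeq2's Wald test called 393, and edgeR with no filter on low counts called 61. Since each library pools sorted cells, a lower level can come from fewer cells of a type or from less RNA in each cell, and the counts cannot tell these apart.

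Of 22946 genes tested, edgeR's quasi-likelihood test called 106 at a Benjamini-Hochberg adjusted p below 0.05, of which 84 (0.366% of all genes tested) were lower and 22 (0.0959%) higher in Sox1+FOXA2+ cells. The unadjusted p was below 0.05 for 2407 genes. In 105 of the 106 called genes the 3 values of one group lay outside the range of the other, and Usp17le was the exception. Over all genes such separation was seen for 1558 genes (6.79%) in the lower and 2461 (10.7%) in the higher direction. The median log2 fold change was 0.205 over all genes, with 12718 genes above 0 and 10182 below. Under the size factors of DESeq2 (RLE) the same median was 0.412, so small positive fold changes below depend on the scaling. Leaving out Sox1+FOXA2+ replicate 2 gave 58 calls. The count was 37 when Sox1-FOXA2+ replicate 1 was dropped, and 66 when its replicate 2 was. DESeq2's Wald test called 1090 genes, with 55.8% of them higher, against 20.8% higher among the 106.

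Other settings of the fit changed which genes were called. Robust dispersion estimates in edgeR, an alternative chosen after values were seen, called 109 genes, but 21 of the 106 were lost there and only 10 of the 22 called higher were kept. Among the genes described below, the calls lost under robust estimates were those of Zscan4c, Zscan4e, Zscan4f, Zscan4b, Usp17le, Nanog, Cubn, Col4a1, Pth1r, Fst, Pdgfra, Loxl2, Lgmn, Ctsl and Lifr. RLE scaling called 70 genes and lost 36 of the 106, among the genes described below Fst, Pdgfra, Klf5, Sec61a1, Hsp90b1, Xbp1, Nanog, Zscan4f and Zscan4b. A fit of only the 6 libraries called 67, with 48 of the 106 lost and 1 not tested. Of the genes described these were Pdgfra, Loxl2, Lifr, Klf5, Xbp1, Dlgap2, Plcg2, Nanog, H2-Bl, Sp110, Usp17le, Zscan4b, Zscan4e and Zscan4f. A fit of all 57 libraries called 269 and lost 11, of those described Ryr3, Dlgap2, Grin2a, Nanog, Usp17le, Zscan4f and Zscan4b. With no filter on low counts 433 were called and 1, Xbp1, was lost. DESeq2 gave no adjusted p for Loxl2.

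**Figure D1:**
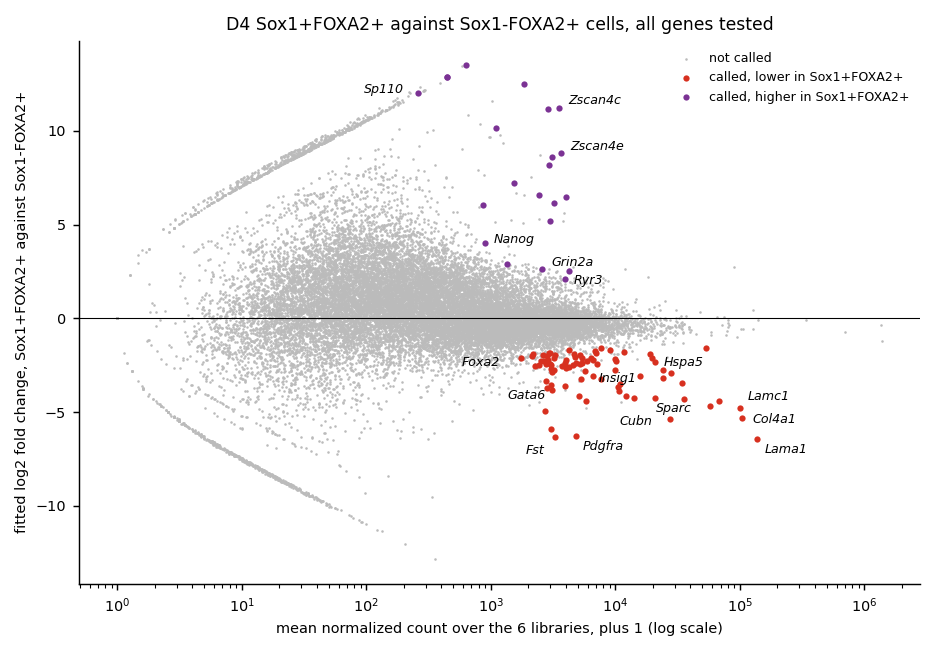
Fold change of each gene tested at D4, Sox1+FOXA2+ cells relative to Sox1-FOXA2+ cells. Fitted log2 fold change against the mean normalized count over the 6 libraries plus 1, on a log axis. Coloured points passed edgeR's quasi-likelihood test at a Benjamini-Hochberg adjusted p below 0.05 (n = 3 libraries per group).

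The sorted marker itself was separated between the groups without a call. Normalized counts of Foxa2 were 214, 528 and 1091 in Sox1+FOXA2+ and 2164, 2716 and 2267 in Sox1-FOXA2+ libraries. All 3 values of the first group lay below all 3 of the second, but the spread among Sox1+FOXA2+ libraries was wide and the gene was not called (log2 fold change -2.37 ± 1.39 (SE), edgeR adjusted p = 0.567). Sox1+FOXA2- cells held 3.09, 55.8 and 251 and Sox1-FOXA2- cells 0, 2.08 and 188, so the Sox1+FOXA2+ cells stood between the FOXA2 single-positive cells and both FOXA2-negative populations, with an overlap at replicate 3 of the Sox1+FOXA2- cells. The other sorted marker, Sox1, cannot be read from this table. Its gene lies inside the bounds of the non-coding gene Sox1ot, and the count table gives 0 for it in every library. The same held for all 443 protein-coding genes nested in another gene on the same strand and for 822 of 822 nested on the opposite strand only, among them Sox2, Tubb3 and Neurod1. Raw counts of Sox1ot, which spans Sox1, were 146, 0 and 1180 in Sox1+FOXA2+ libraries, 108, 4 and 8 in Sox1-FOXA2+ libraries, 145, 450 and 198 in Sox1+FOXA2- libraries and 14, 0 and 102 in Sox1-FOXA2- libraries.

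Basement membrane genes included Lama1, the called gene with the lowest fold change of all. Of 20 members tested, 6 were called lower (all genes 0.366%) and 0 higher, with 13 below 0 and 7 above. In 10 all Sox1+FOXA2+ values lay below all Sox1-FOXA2+ values (all genes 6.79%), and 3 were separated higher (all genes 10.7%). The list median was -1.36 against 0.205 over all genes. These genes together took 0.308, 0.178 and 0.306% of all counts in Sox1+FOXA2+ libraries and 4.24, 1.91 and 3.32% in Sox1-FOXA2+ libraries. Lama1 encodes the laminin alpha chain of the embryonic basement membrane (chromosome 17, bases 67697259 to 67822647 of GRCm38). Its normalized counts were 5590, 1544 and 4023 in Sox1+FOXA2+ and 385741, 141849 and 288886 in Sox1-FOXA2+ libraries. The highest Sox1+FOXA2+ library was far below the lowest Sox1-FOXA2+ library (log2 fold change -6.43 ± 0.66 (SE), edgeR adjusted p = 0.000207). The beta and gamma chains with which it assembles followed. Lamb1 stood at 9034, 3767 and 8640 in Sox1+FOXA2+ and 165151, 80661 and 137653 in Sox1-FOXA2+ libraries and fell by the same test (log2 fold change -4.43 ± 0.57 (SE), edgeR adjusted p = 0.00112). Lamc1, the gamma chain, had 9723, 6397 and 9846 in Sox1+FOXA2+ and 251649, 111016 and 216825 in Sox1-FOXA2+ libraries (log2 fold change -4.76 ± 0.55 (SE), edgeR adjusted p = 0.000335). Neither chain had overlapping groups, and both were still well detected in the Sox1+FOXA2+ cells.

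Collagen IV forms the second network of the basement membrane, and both of its common chains fell. Col4a1 read 10111, 3539 and 3910 in Sox1+FOXA2+ and 294435, 111248 and 200019 in Sox1-FOXA2+ libraries (log2 fold change -5.32 ± 0.90 (SE), edgeR adjusted p = 0.00948). Its neighbour Col4a2, transcribed from the shared promoter region in the opposite direction, read 6803, 2693 and 2593 in Sox1+FOXA2+ and 94123, 35926 and 72619 in Sox1-FOXA2+ libraries (log2 fold change -4.28 ± 0.68 (SE), edgeR adjusted p = 0.00548). Both pairs of groups were separated by a wide gap. Sparc, a collagen-binding protein of basement membranes, had 6233, 3273 and 5874 in Sox1+FOXA2+ and 142602, 78086 and 108185 in Sox1-FOXA2+ libraries and fell with them (log2 fold change -4.70 ± 0.54 (SE), edgeR adjusted p = 0.000335). The linker Nid1 and the proteoglycan Hspg2 did not pass. Nid1, which joins laminin to collagen IV, had 1606, 248 and 1357 in Sox1+FOXA2+ and 11530, 5165 and 10555 in Sox1-FOXA2+ libraries with separated groups (log2 fold change -3.33 ± 1.15 (SE), edgeR adjusted p = 0.334). Hspg2 had 15198, 7039 and 11894 in Sox1+FOXA2+ and 89695, 22112 and 32152 in Sox1-FOXA2+ libraries, also separated (log2 fold change -2.34 ± 0.70 (SE), edgeR adjusted p = 0.228). Other laminin chains moved differently, with Lama5 overlapping between the groups and the epithelial chain Lama3 at 926, 3423 and 2154 in Sox1+FOXA2+ and 322, 64.3 and 557 in Sox1-FOXA2+ libraries (log2 fold change 2.45 ± 0.75 (SE), edgeR adjusted p = 0.251). Nid1, Hspg2, Lama5 and Lama3 were chosen after their values were seen.

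Some of the enzymes that prepare collagen for secretion fell as well. Of 19 members tested, 5 were called lower (all genes 0.366%) and 0 higher, the median was -1.93, and 15 of the 19 lay below 0. In 10 the groups were separated lower, against 6.79% of all genes. Plod2 hydroxylates lysines of collagen telopeptides, and its counts were 1589, 2588 and 1557 in Sox1+FOXA2+ and 19337, 17299 and 21156 in Sox1-FOXA2+ libraries. The groups were far apart (log2 fold change -3.65 ± 0.48 (SE), edgeR adjusted p = 0.00126). P4ha1, the catalytic subunit of the prolyl hydroxylase that stabilises the triple helix, had 1111, 1550 and 2910 in Sox1+FOXA2+ and 16328, 11929 and 12145 in Sox1-FOXA2+ libraries (log2 fold change -3.23 ± 0.45 (SE), edgeR adjusted p = 0.00149). The partner subunit P4hb, which also works as a disulphide isomerase, had 8247, 4836 and 10745 in Sox1+FOXA2+ and 60074, 36191 and 49235 in Sox1-FOXA2+ libraries (log2 fold change -2.92 ± 0.39 (SE), edgeR adjusted p = 0.00126). No Sox1+FOXA2+ value of either subunit reached the lowest Sox1-FOXA2+ value. Serpinh1 is the collagen-specific chaperone of the endoplasmic reticulum and read 7224, 3806 and 5900 in Sox1+FOXA2+ and 66375, 27712 and 34544 in Sox1-FOXA2+ libraries (log2 fold change -3.20 ± 0.52 (SE), edgeR adjusted p = 0.00705). Loxl2, which cross-links collagen IV outside the cell, read 437, 2.79 and 124 in Sox1+FOXA2+ and 5079, 4730 and 6063 in Sox1-FOXA2+ libraries (log2 fold change -4.96 ± 1.00 (SE), edgeR adjusted p = 0.0323). Loxl2 was close to absent from Sox1+FOXA2+ replicate 2, and its edgeR call was lost on leave-out (adjusted p 0.119 leaving out Sox1+FOXA2+ replicate 3 and 0.0589 leaving out Sox1-FOXA2+ replicate 1). Its gene also lies for 41.7% of its exon bases within the bounds of other genes. Among members that did not pass, 4 lay above 0 and 1 of these was separated higher. P4ha2, a second prolyl hydroxylase subunit, had -2.17 ± 0.56 on the log2 scale, edgeR adjusted p = 0.126, and the cyclophilin Ppib, which isomerises prolines in collagen, had -1.93 ± 0.43 on the log2 scale, edgeR adjusted p = 0.0575.

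Of 14 tested transcription factors of the endoderm, 13 had a fold change below 0 (all genes 10182 of 22946), with a median of -2.33. Of these, 1 was called lower (all genes 0.366%), 0 higher, and 8 had separated groups in the lower direction (all genes 6.79%). The called member was Gata6, which starts the primitive endoderm programme. Gata6 counts were 226, 882 and 1151 in Sox1+FOXA2+ and 10107, 4678 and 6504 in Sox1-FOXA2+ libraries. The lowest Sox1-FOXA2+ value was about 4 times the highest Sox1+FOXA2+ value, and the call was made at log2 fold change -3.63 ± 0.67 (SE), edgeR adjusted p = 0.0175. Its edgeR call depended on 1 library (adjusted p 0.0887 leaving out Sox1-FOXA2+ replicate 1). Sox1+FOXA2- cells held 154, 99.99 and 115 and Sox1-FOXA2- cells 99.8, 627 and 785.

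Other members of this list were low in Sox1+FOXA2+ cells without passing the test, and in several of them 1 of the 3 libraries stood apart. Gata4, which acts with Gata6 in endoderm, had 605, 0 and 889 in Sox1+FOXA2+ and 14783, 6476 and 12158 in Sox1-FOXA2+ libraries (log2 fold change -4.77 ± 1.35 (SE), edgeR adjusted p = 0.185). Replicate 2 held none of it, unlike the other 2 replicates. Sox7, a SOX factor of parietal endoderm, had 1.15, 226 and 641 in Sox1+FOXA2+ and 5413, 4788 and 3485 in Sox1-FOXA2+ libraries (log2 fold change -4.44 ± 1.24 (SE), edgeR adjusted p = 0.18), with replicate 1 close to 0. Sox17, its relative in visceral and definitive endoderm, had 343, 908 and 3.17 in Sox1+FOXA2+ and 1584, 2164 and 1535 in Sox1-FOXA2+ libraries (log2 fold change -2.39 ± 1.75 (SE), edgeR adjusted p = 0.695), with replicate 3 close to 0 and the groups separated. The immediate early factor Klf6 was less variable, at 2184, 1893 and 1124 in Sox1+FOXA2+ and 5496, 4367 and 2775 in Sox1-FOXA2+ libraries (log2 fold change -1.56 ± 0.44 (SE), edgeR adjusted p = 0.185). Sox17 was chosen after its values were seen.

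Among 18 tested genes of parietal endoderm, 5 were called lower (all genes 0.366%) and 0 higher, with a median of -1.72. In 8 the groups were separated lower (all genes 6.79%). Srgn, the core protein of an intracellular proteoglycan, had 294, 1201 and 461 in Sox1+FOXA2+ and 14442, 7659 and 10815 in Sox1-FOXA2+ libraries. Its groups were well apart (log2 fold change -4.43 ± 0.68 (SE), edgeR adjusted p = 0.00399). Tfpi, the secreted inhibitor of tissue factor, had 1046, 2122 and 2100 in Sox1+FOXA2+ and 15463, 8610 and 10402 in Sox1-FOXA2+ libraries (log2 fold change -3.07 ± 0.40 (SE), edgeR adjusted p = 0.00126). Pth1r, the receptor through which parathyroid hormone-related peptide drives parietal differentiation, had 153, 79.6 and 135 in Sox1+FOXA2+ and 7629, 5167 and 5128 in Sox1-FOXA2+ libraries (log2 fold change -5.88 ± 1.05 (SE), edgeR adjusted p = 0.0139). The Sox1+FOXA2+ values of Pth1r were low and close together, and 36.1% of its exon bases lie within the bounds of other genes. Fst, the secreted inhibitor of activin, had 134, 112 and 39.7 in Sox1+FOXA2+ and 5569, 8459 and 5345 in Sox1-FOXA2+ libraries (log2 fold change -6.34 ± 1.3 (SE), edgeR adjusted p = 0.0349). Pdgfra, a receptor that marks the primitive endoderm from the blastocyst on, had 298, 0 and 113 in Sox1+FOXA2+ and 12404, 5561 and 10496 in Sox1-FOXA2+ libraries (log2 fold change -6.27 ± 1.34 (SE), edgeR adjusted p = 0.0408). Both were separated, yet their calls were the least stable of the list. For Fst edgeR gave adjusted p 0.0988 leaving out Sox1+FOXA2+ replicate 2, 0.119 leaving out Sox1+FOXA2+ replicate 3 and 0.0501 leaving out Sox1-FOXA2+ replicate 2. For Pdgfra edgeR gave adjusted p 0.144 leaving out Sox1+FOXA2+ replicate 3 and 0.0887 leaving out Sox1-FOXA2+ replicate 1. Thrombomodulin, Thbd, had 0 counts in all 3 Sox1+FOXA2+ libraries against 206, 202 and 322 in Sox1-FOXA2+ libraries, which makes it at least 88.0-fold lower, and it was not called (edgeR adjusted p = 0.367). Gpc3, a cell-surface proteoglycan, overlapped at 34589, 7243 and 28170 in Sox1+FOXA2+ and 13309, 12884 and 14817 in Sox1-FOXA2+ libraries, as did the laminin receptor subunit Itga3 (-0.54 ± 0.47 on the log2 scale, edgeR adjusted p = 0.757). Thbd was chosen after its values were seen.

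Of 32 visceral endoderm genes 24 were tested. The others, which encode secreted proteins, had too few counts to be tested. Of those tested 5 were called lower (all genes 0.366%) and 0 higher, the median was -2.34, and 11 had separated groups, all lower (all genes 6.79%). Uptake of protein by this tissue runs through a receptor complex of Cubn and Lrp2. Cubn (chromosome 2, bases 13276338 to 13491813 of GRCm38) had 845, 1703 and 2354 in Sox1+FOXA2+ and 93424, 13838 and 51688 in Sox1-FOXA2+ libraries. The Sox1-FOXA2+ libraries differed among themselves by several fold, but the lowest still held about 6 times the highest Sox1+FOXA2+ library (log2 fold change -5.38 ± 0.96 (SE), edgeR adjusted p = 0.0143). Its co-receptor Lrp2 read 5837, 8052 and 6825 in Sox1+FOXA2+ and 98265, 31610 and 54277 in Sox1-FOXA2+ libraries (log2 fold change -3.47 ± 0.52 (SE), edgeR adjusted p = 0.00358). The endocytic adaptor Dab2, which links these receptors to clathrin, read 1641, 1371 and 4814 in Sox1+FOXA2+ and 52587, 26437 and 38636 in Sox1-FOXA2+ libraries (log2 fold change -4.27 ± 0.50 (SE), edgeR adjusted p = 0.000335). Lrpap1, the chaperone that brings Lrp2 to the surface, read 2471, 581 and 1839 in Sox1+FOXA2+ and 36089, 17123 and 26138 in Sox1-FOXA2+ libraries (log2 fold change -4.26 ± 0.57 (SE), edgeR adjusted p = 0.00126). For each of these genes no value of the 2 groups overlapped. Lgmn, a lysosomal protease that digests the cargo, read 957, 796 and 188 in Sox1+FOXA2+ and 17119, 6510 and 4882 in Sox1-FOXA2+ libraries (log2 fold change -4.12 ± 0.84 (SE), edgeR adjusted p = 0.0349), and its edgeR call was lost on leave-out (adjusted p 0.0945 leaving out Sox1+FOXA2+ replicate 2, 0.0993 leaving out Sox1+FOXA2+ replicate 3 and 0.167 leaving out Sox1-FOXA2+ replicate 1). The Wnt inhibitor Dkk1, made by the anterior visceral endoderm, had 0 counts in every Sox1+FOXA2+ library against 1245, 437 and 465. That is at least 259-fold lower, without a call (edgeR adjusted p = 0.142), and Dkk1 was chosen after its values were seen. Secreted products of mature visceral endoderm were low in both groups, with Ttr at 0, 58.6 and 0 in Sox1+FOXA2+ and 98.2, 158 and 41.3 in Sox1-FOXA2+ libraries and Afp at 0, 0 and 181 in Sox1+FOXA2+ and 40.8, 46.2 and 0 in Sox1-FOXA2+ libraries, each chosen after its values were seen.

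**Figure D2:**
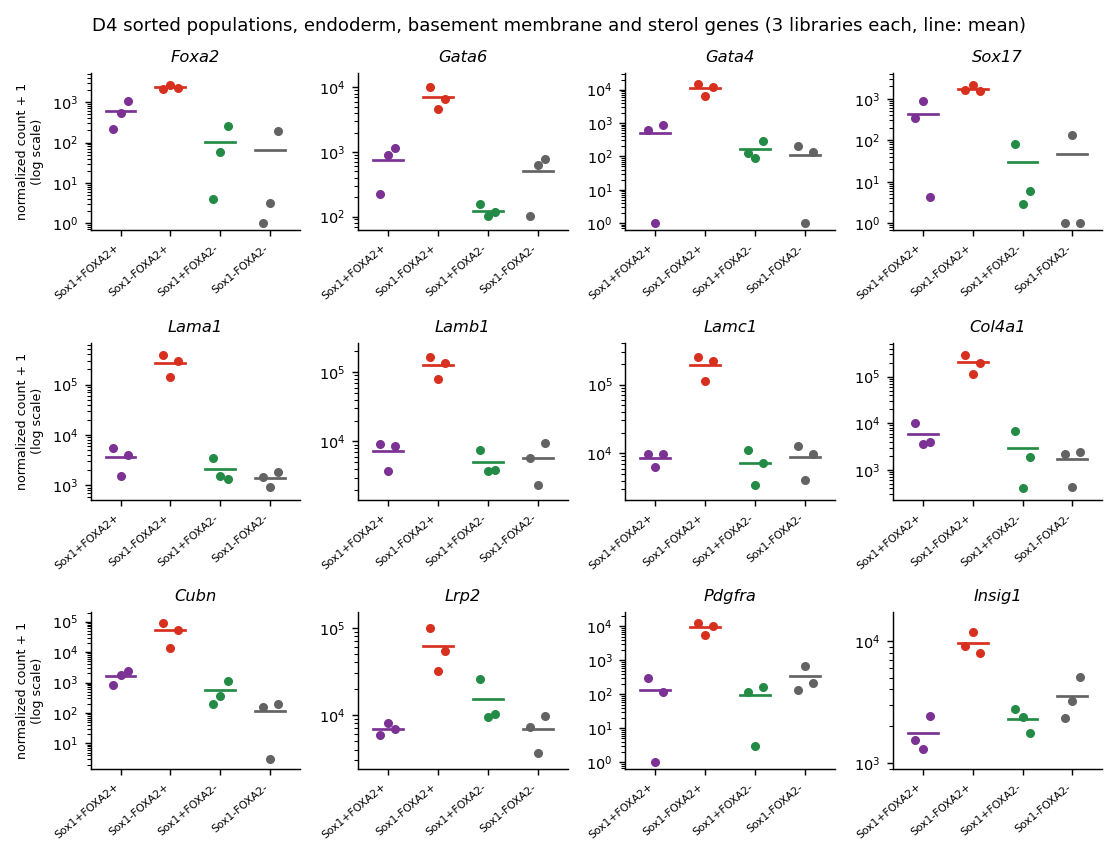
Endoderm, basement membrane and uptake genes and Insig1 in the 4 populations sorted at D4. Each point is 1 library (normalized count plus 1, log axis), the line marks the mean of the 3 libraries.

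Some genes of the general machinery for protein export were called lower too. A list of translocon, signal peptidase and N-glycan transfer genes, chosen after values were seen, had 27 of 28 members below 0, a median of -1.34 and 5 called lower (all genes 0.366%). In it 20 members had separated groups, all lower, against 6.79% of all genes. Ssr3, a subunit of the complex that helps proteins into the translocon, had 4354, 3309 and 4901 in Sox1+FOXA2+ and 16935, 17951 and 13183 in Sox1-FOXA2+ libraries (log2 fold change -2.25 ± 0.35 (SE), edgeR adjusted p = 0.00399). Sec61a1, the channel itself, had 932, 1702 and 2004 in Sox1+FOXA2+ and 8477, 5081 and 5255 in Sox1-FOXA2+ libraries (log2 fold change -2.38 ± 0.49 (SE), edgeR adjusted p = 0.0346). Ssr3 kept its call in every setting tried, and the call of Sec61a1 was lost in 4 of the 6 leave-one-out fits (adjusted p 0.0964 leaving out Sox1+FOXA2+ replicate 1, 0.0872 leaving out Sox1+FOXA2+ replicate 2, 0.0721 leaving out Sox1+FOXA2+ replicate 3 and 0.185 leaving out Sox1-FOXA2+ replicate 1). Both genes were chosen after their values were seen.

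Some folding factors of the endoplasmic reticulum were also called. Of 29 members, again chosen after values were seen, 11 were called lower (all genes 0.366%), 25 lay below 0 and the median was -1.93. In 21 the groups were separated, all lower (all genes 6.79%). The list took 0.348, 0.223 and 0.355% of counts in Sox1+FOXA2+ libraries and 1.14, 0.9 and 0.954% in Sox1-FOXA2+ libraries. The main chaperone Hspa5 had 7864, 4979 and 11640 in Sox1+FOXA2+ and 43468, 26657 and 29837 in Sox1-FOXA2+ libraries. No value overlapped (log2 fold change -2.35 ± 0.45 (SE), edgeR adjusted p = 0.0221), though the edgeR call was lost on leave-out (adjusted p 0.0994 leaving out Sox1+FOXA2+ replicate 2 and 0.0871 leaving out Sox1-FOXA2+ replicate 1). Calr, the lectin chaperone that holds new glycoproteins, had 9097, 5107 and 7940 in Sox1+FOXA2+ and 50992, 34972 and 36905 in Sox1-FOXA2+ libraries (log2 fold change -2.75 ± 0.38 (SE), edgeR adjusted p = 0.00144). Dnajc3, a co-chaperone that also restrains the kinase PERK, had 1262, 656 and 2089 in Sox1+FOXA2+ and 7549, 7006 and 5769 in Sox1-FOXA2+ libraries (log2 fold change -2.67 ± 0.47 (SE), edgeR adjusted p = 0.0123). Erp29, a folding factor of secreted proteins, had 1782, 1036 and 2026 in Sox1+FOXA2+ and 8322, 6381 and 7831 in Sox1-FOXA2+ libraries (log2 fold change -2.51 ± 0.38 (SE), edgeR adjusted p = 0.00369). Each of the 3 was separated between the groups and kept its call in every setting, although 84.0% of the exon bases of Erp29 lie within the bounds of other genes. Stress-induced factors outside folding were mixed. Xbp1, a factor induced by endoplasmic reticulum stress, had 896, 1217 and 1210 in Sox1+FOXA2+ and 2584, 3411 and 3756 in Sox1-FOXA2+ libraries without overlap (log2 fold change -1.88 ± 0.41 (SE), edgeR adjusted p = 0.049), and its call was lost in all 6 leave-one-out fits (adjusted p 0.13 leaving out Sox1+FOXA2+ replicate 1, 0.12 leaving out Sox1+FOXA2+ replicate 2, 0.175 leaving out Sox1+FOXA2+ replicate 3, 0.176 leaving out Sox1-FOXA2+ replicate 1, 0.211 leaving out Sox1-FOXA2+ replicate 2 and 0.183 leaving out Sox1-FOXA2+ replicate 3). RLE scaling, no filter on low counts and a fit of only the 6 libraries lost it too. Ddit3 had 250.5, 161 and 344 in Sox1+FOXA2+ and 285, 87.9 and 198 in Sox1-FOXA2+ libraries and Atf4 3920, 3923 and 1081 in Sox1+FOXA2+ and 1765, 2292 and 1897 in Sox1-FOXA2+ libraries, both overlapping. Calr, Dnajc3, Erp29, Xbp1 and Ddit3 were chosen after their values were seen.

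Promoters of folding genes can carry the endoplasmic reticulum stress element, CCAAT and CCACG parted by 9 bases, at which NF-Y and ATF6 bind. This motif was chosen after the values were seen. In the 250 bases before transcription starts it was found in 37 of 32851 promoters (0.113%), in 4 of 74 promoters of genes called lower (5.41%) and in 7 of 27 promoters of the folding list (25.9%). The 4 were those of Hspa5, Calr, Hsp90b1 and Dnajc3. The sequences of 3 of them, GRCm38.p6 from RefSeq, are shown 5′ to 3′ with the motif in capitals on either strand, because they are among the 4 matches in genes called lower. Such a match describes the DNA and does not show that a protein was bound. Hsp90b1 holds 2 matches (chr10:86705510-86705694, minus strand), Calr 1 (chr8:84846935-84847181, minus strand) and Dnajc3 1 (chr14:118937682-118937931, plus strand). Hsp90b1 had 9221, 8200 and 8629 in Sox1+FOXA2+ and 33659, 28196 and 30465 in Sox1-FOXA2+ libraries (log2 fold change -2.12 ± 0.44 (SE), edgeR adjusted p = 0.0359). Its edgeR call was kept in only 2 of the 6 leave-one-out fits. It was lost leaving out Sox1+FOXA2+ replicates 2 and 3 (adjusted p 0.134 and 0.121) and Sox1-FOXA2+ replicates 1 and 2 (0.110 and 0.0502). Hsp90b1 was chosen after its values were seen.

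Hsp90b1: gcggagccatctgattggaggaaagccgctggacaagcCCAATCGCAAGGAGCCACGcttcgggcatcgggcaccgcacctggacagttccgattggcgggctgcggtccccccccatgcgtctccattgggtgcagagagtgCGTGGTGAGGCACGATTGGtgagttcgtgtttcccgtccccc

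Calr: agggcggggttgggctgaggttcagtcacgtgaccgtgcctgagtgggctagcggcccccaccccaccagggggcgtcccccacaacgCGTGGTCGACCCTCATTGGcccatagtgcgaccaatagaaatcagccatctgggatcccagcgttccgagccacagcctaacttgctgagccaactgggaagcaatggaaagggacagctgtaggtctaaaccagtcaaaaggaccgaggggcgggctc

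Dnajc3: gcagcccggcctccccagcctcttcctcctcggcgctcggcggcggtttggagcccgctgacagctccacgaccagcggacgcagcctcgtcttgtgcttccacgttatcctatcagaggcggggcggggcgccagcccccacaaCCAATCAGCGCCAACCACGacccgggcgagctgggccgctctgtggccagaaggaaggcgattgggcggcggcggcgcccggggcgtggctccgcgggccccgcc

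Lysosomal genes and subunits of the vacuolar ATPase, which acidifies endosomes and lysosomes, made up another list chosen after values were seen. Of 48 members 6 were called lower (all genes 0.366%) and 0 higher, 44 lay below 0 and the median was -1.41. In 22 the groups were separated lower (all genes 6.79%). Atp6v0a1, a membrane subunit of the pump, had 3132, 1153 and 5007 in Sox1+FOXA2+ and 18962, 13310 and 17830 in Sox1-FOXA2+ libraries (log2 fold change -2.74 ± 0.47 (SE), edgeR adjusted p = 0.00948). Ctsl, a lysosomal protease abundant in extraembryonic endoderm, had 2153, 2189 and 2064 in Sox1+FOXA2+ and 32897, 11167 and 15350 in Sox1-FOXA2+ libraries (log2 fold change -3.51 ± 0.67 (SE), edgeR adjusted p = 0.0221). Both were separated, and the 3 Sox1+FOXA2+ values of Ctsl were nearly equal. The call of Ctsl was lost on leave-out (adjusted p 0.0743 leaving out Sox1+FOXA2+ replicate 2, 0.073 leaving out Sox1+FOXA2+ replicate 3 and 0.0894 leaving out Sox1-FOXA2+ replicate 1). Atp6v0a1 and Ctsl were chosen after their values were seen.

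Of 27 tested genes of sterol and lipid synthesis, 25 lay below 0 (all genes 10182 of 22946), with a median of -1.27. In 16 the groups were separated lower (all genes 6.79%). Only Insig1 passed edgeR's test (all genes 0.366%). Insig1 keeps the sterol sensor of the SREBP pathway in the endoplasmic reticulum and is itself induced by SREBP. Its counts were 1528, 1290 and 2429 in Sox1+FOXA2+ and 9023, 11821 and 7943 in Sox1-FOXA2+ libraries. The groups were far apart (log2 fold change -2.80 ± 0.42 (SE), edgeR adjusted p = 0.00369), and the call was kept in every setting. Uncalled members included Scd1, a fatty acid desaturase, with 3789, 617 and 4922 in Sox1+FOXA2+ and 14038, 6418 and 7855 in Sox1-FOXA2+ libraries (log2 fold change -1.89 ± 0.59 (SE), edgeR adjusted p = 0.254). Acly, which makes the acetyl-CoA for lipid synthesis, had -1.36 ± 0.39 on the log2 scale, edgeR adjusted p = 0.192. Fasn, the fatty acid synthase, had 15042, 16885 and 16737 in Sox1+FOXA2+ and 34139, 23198 and 20819 in Sox1-FOXA2+ libraries (log2 fold change -1.0 ± 0.34 (SE), edgeR adjusted p = 0.317), while Acaca overlapped between the groups (0.07 ± 0.40 on the log2 scale, edgeR adjusted p = 0.978). The list also had a median of -1.06 against Sox1+FOXA2- cells, where no member passed.

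Of the 84 genes called lower, 25 belonged to one of the 26 lists, the 3 added ones aside. The 26 lists were themselves chosen with earlier results of these data known. Epas1, a hypoxia-inducible factor, was at 692, 645 and 3721 in Sox1+FOXA2+ and 19980, 26815 and 20887 in Sox1-FOXA2+ libraries (log2 fold change -4.15 ± 0.60 (SE), edgeR adjusted p = 0.00239). Fabp3, a fatty acid carrier, was at 898, 2725 and 1451 in Sox1+FOXA2+ and 28833, 12781 and 17691 in Sox1-FOXA2+ libraries (log2 fold change -3.90 ± 0.53 (SE), edgeR adjusted p = 0.00137). The groups did not overlap for either gene, and both calls were kept in every setting. Lifr, the receptor of the cytokine that holds ESCs in self-renewal, was at 7483, 1628 and 2099 in Sox1+FOXA2+ and 30044, 12311 and 41018 in Sox1-FOXA2+ libraries (log2 fold change -3.06 ± 0.65 (SE), edgeR adjusted p = 0.0403), and its call was lost in 4 of the 6 leave-one-out fits (adjusted p 0.136 leaving out Sox1+FOXA2+ replicate 2, 0.145 leaving out Sox1+FOXA2+ replicate 3, 0.0875 leaving out Sox1-FOXA2+ replicate 1 and 0.0816 leaving out Sox1-FOXA2+ replicate 3). Epas1, Fabp3 and Lifr were chosen after their values were seen. Klf5 was the only member of the naive pluripotency list called lower by edgeR. It had 2262, 427 and 1437 in Sox1+FOXA2+ and 9543, 5476 and 6526 in Sox1-FOXA2+ libraries (log2 fold change -2.62 ± 0.54 (SE), edgeR adjusted p = 0.0359), and the edgeR call was lost on leave-out (adjusted p 0.0752 leaving out Sox1+FOXA2+ replicate 2, 0.128 leaving out Sox1+FOXA2+ replicate 3 and 0.162 leaving out Sox1-FOXA2+ replicate 1).

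The genes called higher were few, and their best-known members mark the two-cell-like state, in which a small share of ESCs turns on genes of the two-cell embryo. Of 17 tested members, 5 were called higher (22 of all genes, 0.0959%) and 0 lower, 16 lay above 0 and the median was 7.72. Only 6 had separated groups, all higher (all genes 10.7%). These are multicopy genes with near-identical sequence, so reads of 1 copy can be counted for another and the names are uncertain. Zscan4c (chromosome 7, bases 11005745 to 11010547 of GRCm38), which lengthens telomeres and marks the state, had 18214, 2890 and 60.3 in Sox1+FOXA2+ and 7.41, 1.13 and 0 in Sox1-FOXA2+ libraries. Replicate 1 held far more than replicate 3, and yet the lowest value was above all Sox1-FOXA2+ values (log2 fold change 11.23 ± 1.68 (SE), edgeR adjusted p = 0.00348). Zscan4e, a copy, had 17949, 3782 and 229 in Sox1+FOXA2+ and 0, 13.5 and 31.8 in Sox1-FOXA2+ libraries (log2 fold change 8.79 ± 1.55 (SE), edgeR adjusted p = 0.0136). Usp17le, a deubiquitinase gene of a repeat array, had 10689, 8139 and 106 in Sox1+FOXA2+ and 50.02, 119.5 and 52.4 in Sox1-FOXA2+ libraries (log2 fold change 6.18 ± 1.07 (SE), edgeR adjusted p = 0.0123). Its replicate 3 fell inside the range of the other group. Zscan4c, Zscan4e and Usp17le kept their calls in every leave-one-out fit, but all 3 lost them under robust dispersion estimates. Zscan4e and Usp17le also lost theirs with only the 6 libraries, and Usp17le with all 57. Zscan4f had 10719, 3634 and 123 in Sox1+FOXA2+ and 5.56, 115 and 7.94 in Sox1-FOXA2+ libraries (log2 fold change 6.58 ± 1.40 (SE), edgeR adjusted p = 0.0403), and lost its edgeR call on leave-out (adjusted p 0.0964 leaving out Sox1+FOXA2+ replicate 1, 0.127 leaving out Sox1-FOXA2+ replicate 1 and 0.0839 leaving out Sox1-FOXA2+ replicate 3). Zscan4b had 5243, 3643 and 212 in Sox1+FOXA2+ and 50.02, 3.38 and 0 in Sox1-FOXA2+ libraries (log2 fold change 7.22 ± 1.52 (SE), edgeR adjusted p = 0.039), and lost its edgeR call on leave-out (adjusted p 0.11 leaving out Sox1+FOXA2+ replicate 1, 0.0605 leaving out Sox1+FOXA2+ replicate 2, 0.113 leaving out Sox1-FOXA2+ replicate 2 and 0.0542 leaving out Sox1-FOXA2+ replicate 3). The whole list took 0.378, 0.092 and 0.00384% of counts in the Sox1+FOXA2+ replicates, so the signal came mainly from replicates 1 and 2. Replicate 3 was close to the highest Sox1-FOXA2+ library, at 0.00262%.

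The same genes were present in cells without FOXA2. Sox1+FOXA2- cells had 526, 513 and 399 counts of Zscan4c and Sox1-FOXA2- cells 766, 3339 and 2431. By share of counts the list took 0.0174, 0.0114 and 0.0148% in Sox1+FOXA2- libraries and 0.0129, 0.0971 and 0.0283% in Sox1-FOXA2- libraries, against 0.000597, 0.00262 and 0.000368% in Sox1-FOXA2+ libraries. The Sox1-FOXA2+ libraries were the lowest of the 12, and Sox1+FOXA2+ replicate 1 was the highest. Zscan4d, not called, read 19510, 2348 and 346 in Sox1+FOXA2+ and 18.5, 508 and 7.94 in Sox1-FOXA2+ libraries (log2 fold change 5.19 ± 1.47 (SE), edgeR adjusted p = 0.185). Usp17lb, not called, read 12450, 2379 and 19.1 in Sox1+FOXA2+ and 33.3, 0 and 0 in Sox1-FOXA2+ libraries (log2 fold change 8.72 ± 2.48 (SE), edgeR adjusted p = 0.185).

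The promoters of Zscan4c and Zscan4f each hold the nuclear receptor motif AGGTCA, read as TGACCT on the other strand. It is found in 4607 of 32851 promoters and in 4 of the 9 promoters of genes called higher (44.4%). The 4 were those of Nanog, Zscan4b, Zscan4c and Zscan4f, so this share rests largely on copies of the same family. The promoters of Zscan4c and Zscan4f are shown because they are so alike. Laid over one another with an offset of 23 bases they match at 226 of 227 bases (99.6%). Zscan4c is from chr7:11005495-11005744, plus strand, and Zscan4f from chr7:11397665-11397914, plus strand, both GRCm38.p6 from RefSeq, written 5′ to 3′ with the match in capitals. The match is a description of the sequence alone.

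Zscan4c: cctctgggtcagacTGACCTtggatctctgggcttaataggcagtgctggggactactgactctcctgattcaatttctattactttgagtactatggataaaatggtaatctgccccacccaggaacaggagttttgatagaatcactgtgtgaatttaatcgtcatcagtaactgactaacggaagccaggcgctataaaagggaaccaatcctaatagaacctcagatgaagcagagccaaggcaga

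Zscan4f: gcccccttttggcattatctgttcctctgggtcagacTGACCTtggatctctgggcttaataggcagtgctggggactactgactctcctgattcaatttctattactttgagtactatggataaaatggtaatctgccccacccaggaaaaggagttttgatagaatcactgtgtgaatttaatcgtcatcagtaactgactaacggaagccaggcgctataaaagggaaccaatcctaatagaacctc

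Pluripotency genes were otherwise mixed. In the naive list 1 of 17 tested members was called lower (all genes 0.366%) and 1 higher (all genes 0.0959%). In it 14 lay above 0, and the median was 1.06 against 0.205 over all genes. The groups were separated lower in 1 member (all genes 6.79%) and higher in 6 (all genes 10.7%). The member called higher was Nanog, a core factor of naive cells. Nanog read 3943, 617 and 529 in Sox1+FOXA2+ and 25.01, 149.9 and 101 in Sox1-FOXA2+ libraries. All Sox1+FOXA2+ values were above all Sox1-FOXA2+ values, with replicate 1 more than 6 times the other 2 (log2 fold change 4.04 ± 0.87 (SE), edgeR adjusted p = 0.0448). Its edgeR call was lost on leave-out (adjusted p 0.213 leaving out Sox1+FOXA2+ replicate 1, 0.185 leaving out Sox1-FOXA2+ replicate 1, 0.0502 leaving out Sox1-FOXA2+ replicate 2 and 0.101 leaving out Sox1-FOXA2+ replicate 3). Esrrb, a nuclear receptor of naive cells, read 3689, 1167 and 2618 in Sox1+FOXA2+ and 543, 252 and 568 in Sox1-FOXA2+ libraries (log2 fold change 2.22 ± 0.61 (SE), edgeR adjusted p = 0.178). Zfp42 read 3871, 1134 and 2715 in Sox1+FOXA2+ and 1087, 1062 and 953 in Sox1-FOXA2+ libraries (log2 fold change 1.06 ± 0.53 (SE), edgeR adjusted p = 0.488), and the DNA demethylase Tet2 read 5259, 5194 and 2916 in Sox1+FOXA2+ and 2186, 1559 and 2883 in Sox1-FOXA2+ libraries (log2 fold change 0.75 ± 0.39 (SE), edgeR adjusted p = 0.499). The groups of all 3 were separated, those of Zfp42 and Tet2 by a gap so narrow that it can depend on the scaling. None of the 3 passed, and Sox1-FOXA2- cells held the highest mean of each. In the list of core and formative genes 0 of 18 were called (all genes 0.462%) and the median was 0.318. There Dppa2, an activator of two-cell-like genes, stood at 5023, 3091 and 1961 in Sox1+FOXA2+ and 713, 107 and 352 in Sox1-FOXA2+ libraries (log2 fold change 2.88 ± 0.68 (SE), edgeR adjusted p = 0.0772), a gene chosen after its values were seen. The de novo methyltransferase Dnmt3b stood the other way, at 2713, 4515 and 1862 in Sox1+FOXA2+ and 19270, 8485 and 4644 in Sox1-FOXA2+ libraries (log2 fold change -2.15 ± 0.53 (SE), edgeR adjusted p = 0.107), and Lin28a, Sall4 and Trim71 overlapped between the groups.

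Besides predicted genes and pseudogenes, 6 other genes were called higher. Ryr3, a calcium release channel, had 7272, 6729 and 5884 in Sox1+FOXA2+ and 1409, 871 and 1491 in Sox1-FOXA2+ libraries (log2 fold change 2.12 ± 0.42 (SE), edgeR adjusted p = 0.0291). Grin2a, a subunit of the NMDA receptor, had 5280, 4815 and 3513 in Sox1+FOXA2+ and 522, 477 and 849 in Sox1-FOXA2+ libraries (log2 fold change 2.61 ± 0.46 (SE), edgeR adjusted p = 0.0137). Both genes were even within each group and readily detected in all 6 libraries. The counts do not separate reads of exons from reads of introns. Dlgap2, a scaffold of the postsynaptic density, had 4333, 10185 and 7882 in Sox1+FOXA2+ and 840.1, 454 and 1865 in Sox1-FOXA2+ libraries (log2 fold change 2.50 ± 0.52 (SE), edgeR adjusted p = 0.0375). Plcg2, a phospholipase of immune cells, had 868, 4350 and 2169 in Sox1+FOXA2+ and 328, 262 and 156 in Sox1-FOXA2+ libraries (log2 fold change 2.92 ± 0.60 (SE), edgeR adjusted p = 0.0353). Sp110, a nuclear body protein, had 506, 142 and 899 counts in Sox1+FOXA2+ libraries and 0 in each Sox1-FOXA2+ library, at least 226-fold (edgeR adjusted p = 0.0209). H2-Bl, a class I histocompatibility gene, had 1639, 3038 and 422 in Sox1+FOXA2+ and 7.41, 48.5 and 3.17 in Sox1-FOXA2+ libraries (log2 fold change 6.06 ± 1.23 (SE), edgeR adjusted p = 0.0323). No groups overlapped for these genes, but no call survived every leave-one-out fit.

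By edgeR these calls ended as follows on leave-out. Ryr3 had adjusted p 0.0885 leaving out Sox1+FOXA2+ replicate 1, 0.138 leaving out Sox1-FOXA2+ replicate 1, 0.179 leaving out Sox1-FOXA2+ replicate 2 and 0.0816 leaving out Sox1-FOXA2+ replicate 3. Grin2a had adjusted p 0.064 leaving out Sox1+FOXA2+ replicate 1, 0.115 leaving out Sox1-FOXA2+ replicate 1 and 0.0797 leaving out Sox1-FOXA2+ replicate 2. Dlgap2 had adjusted p 0.105 leaving out Sox1+FOXA2+ replicate 2, 0.0719 leaving out Sox1+FOXA2+ replicate 3, 0.251 leaving out Sox1-FOXA2+ replicate 1 and 0.184 leaving out Sox1-FOXA2+ replicate 2. The calls of the immune genes were not firmer. Plcg2 had adjusted p 0.142 leaving out Sox1+FOXA2+ replicate 2, 0.0521 leaving out Sox1+FOXA2+ replicate 3, 0.117 leaving out Sox1-FOXA2+ replicate 1, 0.124 leaving out Sox1-FOXA2+ replicate 2 and 0.151 leaving out Sox1-FOXA2+ replicate 3. Sp110 had adjusted p 0.104 leaving out Sox1-FOXA2+ replicate 1, 0.064 leaving out Sox1-FOXA2+ replicate 2 and 0.0639 leaving out Sox1-FOXA2+ replicate 3. H2-Bl had adjusted p 0.0557 leaving out Sox1+FOXA2+ replicate 1, 0.0829 leaving out Sox1+FOXA2+ replicate 2, 0.162 leaving out Sox1-FOXA2+ replicate 1 and 0.0794 leaving out Sox1-FOXA2+ replicate 3.

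**Figure D3:**
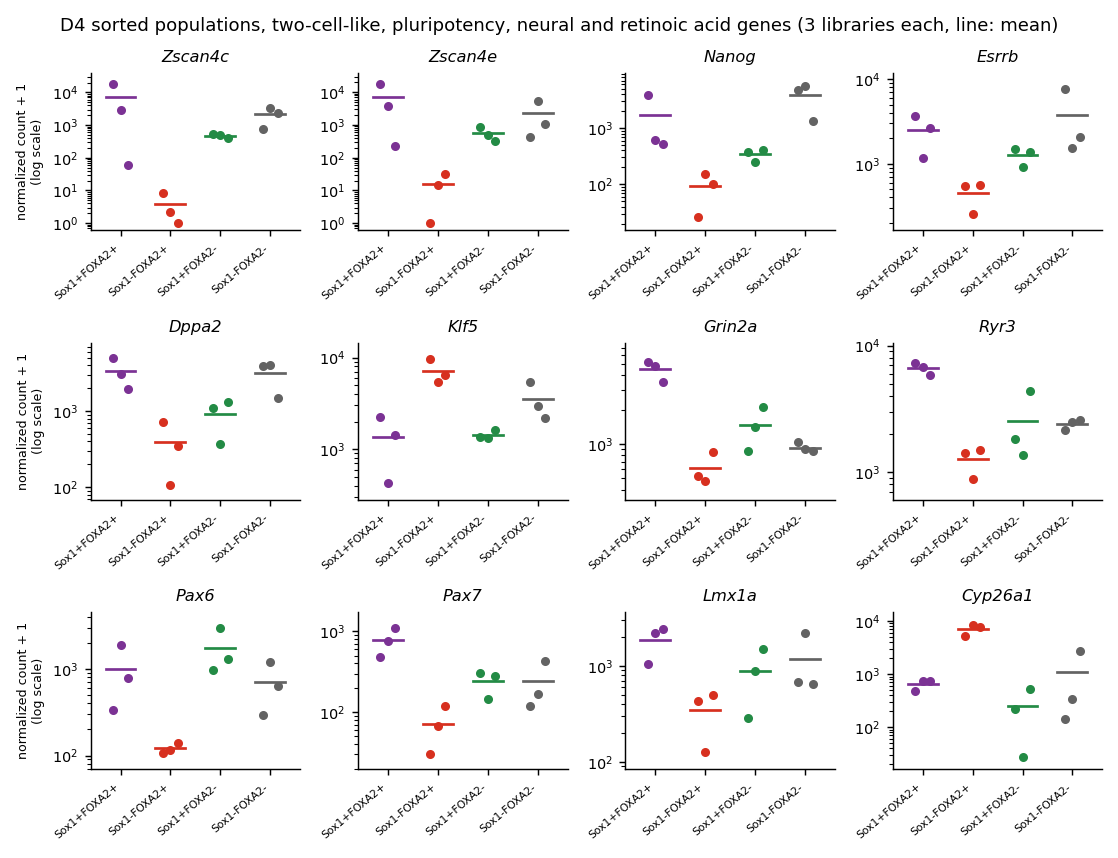
Two-cell-like, pluripotency, signalling and neural genes and Cyp26a1 in the 4 populations sorted at D4. Each point is 1 library (normalized count plus 1, log axis), the line marks the mean of the 3 libraries.

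No member of the neural lists was called by edgeR in either direction, against 0.462% of all genes. At that share, the lack of calls in such short lists says little about them. Of 33 tested neural progenitor genes 25 lay above 0, the median was 0.62, and 6 had all Sox1+FOXA2+ values above all Sox1-FOXA2+ values (all genes 10.7%). The list took 0.234, 0.197 and 0.179% of counts in Sox1+FOXA2+ libraries, 0.0896 to 0.15% in Sox1-FOXA2+ libraries and 0.374, 0.277 and 0.209% in Sox1+FOXA2- libraries. The Sox1+FOXA2+ values were all above the Sox1-FOXA2+ values and overlapped with those of Sox1+FOXA2- cells. Pax6, the early neuroectoderm factor, read 332, 1882 and 793 in Sox1+FOXA2+ and 106, 114 and 139.7 in Sox1-FOXA2+ libraries (log2 fold change 2.69 ± 0.75 (SE), edgeR adjusted p = 0.183). Pax7, a dorsal factor, read 477, 757 and 1102 in Sox1+FOXA2+ and 29.6, 66.5 and 118 in Sox1-FOXA2+ libraries (log2 fold change 3.10 ± 1.16 (SE), edgeR adjusted p = 0.407). Both were separated without a call. Meis2, a cofactor of Hox proteins, read 20129, 13057 and 12613 in Sox1+FOXA2+ and 5263, 8637 and 10965 in Sox1-FOXA2+ libraries (log2 fold change 0.62 ± 0.55 (SE), edgeR adjusted p = 0.763). Cdh2, the neural cadherin, read 5902, 9633 and 3768 in Sox1+FOXA2+ and 2378, 3271 and 3209 in Sox1-FOXA2+ libraries (log2 fold change 0.82 ± 0.46 (SE), edgeR adjusted p = 0.549). Nes and Gli3 overlapped, and so did Meis1 and Zfp521. Dbx1, a factor of interneuron progenitors, had 0 counts in each Sox1-FOXA2+ library and 83.7, 402 and 122 in the Sox1+FOXA2+ libraries, at least 88.7-fold (edgeR adjusted p = 0.387). Pax6, Pax7 and Dbx1 were chosen after their values were seen.

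FOXA2 also marks the floor plate, and ventral neural genes were tested as their own list. Of 14 tested members 0 were called (all genes 0.462%), 8 lay above 0 and the median was 0.344. Lmx1a, which specifies floor plate and midbrain progenitors, had 1032, 2174 and 2396 in Sox1+FOXA2+ and 429.8, 125 and 491 in Sox1-FOXA2+ libraries (log2 fold change 2.08 ± 0.71 (SE), edgeR adjusted p = 0.323). Lmx1b, its relative, had 1181, 1122 and 1128 in Sox1+FOXA2+ and 669.7, 803 and 595 in Sox1-FOXA2+ libraries (log2 fold change 0.42 ± 0.71 (SE), edgeR adjusted p = 0.895). Both were separated upward. The hedgehog receptor Ptch1 had 11845, 1706 and 2828 in Sox1+FOXA2+ and 4718, 2339 and 9679 in Sox1-FOXA2+ libraries, and the guidance genes Ntn1, Slit2 and Spon1 overlapped as well. Neuronal genes had 0 of 22 called, 16 above 0, a median of 0.966 and 5 members separated upward (all genes 10.7%, with 12718 of 22946 above 0). Stmn2, a microtubule regulator of axons, had 1417, 635 and 1629 in Sox1+FOXA2+ and 324, 145 and 225 in Sox1-FOXA2+ libraries (log2 fold change 2.12 ± 0.60 (SE), edgeR adjusted p = 0.185). Rbfox3, a splicing factor of mature neurons, had 1213, 8089 and 7274 in Sox1+FOXA2+ and 545, 477 and 1914 in Sox1-FOXA2+ libraries (log2 fold change 2.13 ± 0.75 (SE), edgeR adjusted p = 0.349), overlapping through replicate 1. Map2, Elavl2, Elavl4 and Onecut2 overlapped too.

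RA itself is read through its response genes. Of 22 tested 0 were called (all genes 0.462%), with 16 above 0 and a median of 0.371. Cyp26a1, the enzyme that degrades RA and is induced by it, read 471, 748 and 735 in Sox1+FOXA2+ and 5280, 8454 and 7809 in Sox1-FOXA2+ libraries. The groups were far apart with Sox1+FOXA2+ cells lower, but the gene did not pass (log2 fold change -3.81 ± 0.91 (SE), edgeR adjusted p = 0.0851). Rarb, a receptor induced by RA, read 5724, 4061 and 6536 in Sox1+FOXA2+ and 1904, 3648 and 4405 in Sox1-FOXA2+ libraries (log2 fold change 0.41 ± 0.44 (SE), edgeR adjusted p = 0.815), and Stra8 read 7255, 8502 and 7577 in Sox1+FOXA2+ and 2242, 6748 and 6641 in Sox1-FOXA2+ libraries (log2 fold change 0.26 ± 0.58 (SE), edgeR adjusted p = 0.925). The 2 receptors Rarb and Rara overlapped between the groups. Crabp2, which carries RA to its receptors, read 2213, 3795 and 1497 in Sox1+FOXA2+ and 615, 963 and 862 in Sox1-FOXA2+ libraries (log2 fold change 1.31 ± 0.61 (SE), edgeR adjusted p = 0.473). Its level in Sox1+FOXA2- cells was higher, at 7947, 15266 and 4806. The zinc finger gene Tshz1 overlapped (0.15 ± 0.51 on the log2 scale, edgeR adjusted p = 0.959).

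In the 4 lists of signalling pathways edgeR called 0 genes, against 0.462% of all genes. At that share, 0 calls in lists of this size say little about them. Receptors and secreted factors of other lists were called (Fst, Pdgfra and Pth1r). Nodal, activin and BMP genes had 0 of 28 called and a median of 0.311, with Skil, Tgfbr1, Bmpr1a, Acvr1, Bmper and Bmp6 overlapping between the groups. Wnt genes had 0 of 37 called and a median of 0.356. Fzd7 read 1459, 2259 and 1077 in Sox1+FOXA2+ and 2549, 2623 and 1551 in Sox1-FOXA2+ libraries (log2 fold change -0.81 ± 0.51 (SE), edgeR adjusted p = 0.606), and Lgr4, Kremen1, Fzd3, Wnt5b and Fzd2 overlapped. FGF genes had 0 of 23 called, a median of 0.123, 4 members separated lower (all genes 6.79%) and 4 higher (all genes 10.7%). The receptor Fgfr2 read 19433, 30243 and 32725 in Sox1+FOXA2+ and 18967, 23695 and 24246 in Sox1-FOXA2+ libraries (log2 fold change -0.04 ± 0.42 (SE), edgeR adjusted p = 0.987), a level shared by both groups. Fgfr1 was separated upward at 2524, 3052 and 4825 in Sox1+FOXA2+ and 1424, 1820 and 1517 in Sox1-FOXA2+ libraries (log2 fold change 0.77 ± 0.45 (SE), edgeR adjusted p = 0.566), and the ligand Fgf10 downward at 427, 248 and 587 in Sox1+FOXA2+ and 5526, 1542 and 6051 in Sox1-FOXA2+ libraries (log2 fold change -3.66 ± 1.16 (SE), edgeR adjusted p = 0.269). Spred1, Spred2 and Etv5 overlapped. Notch genes had 0 of 18 called and a median of 1.00, with Notch3 at 1902, 2139 and 3887 in Sox1+FOXA2+ and 1034, 767 and 821 in Sox1-FOXA2+ libraries (log2 fold change 1.25 ± 0.57 (SE), edgeR adjusted p = 0.471). The effector Hes1 read 822, 626 and 737 in Sox1+FOXA2+ and 1152, 2005 and 748 in Sox1-FOXA2+ libraries and overlapped narrowly. Notch2, Maml3 and Jag2 overlapped more widely, while Dner was separated upward (1.95 ± 0.79 on the log2 scale, edgeR adjusted p = 0.452).

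Lists of other lineages had 0 genes called by edgeR (all genes 0.462%), with medians on both sides of the all-gene median. At that share, 0 calls in such short lists say little about them. Definitive endoderm and mesendoderm genes had 0 of 9 called and a median of -0.126, which was 0.164 under RLE scaling. Eomes, a factor of both lineages, read 455, 0 and 309.6 in Sox1+FOXA2+ and 333, 107 and 313 in Sox1-FOXA2+ libraries (log2 fold change -0.18 ± 1.99 (SE), edgeR adjusted p = 0.989), and Prdm1, a repressor of the endoderm and germ line, read 1628, 1502 and 1694 in Sox1+FOXA2+ and 1633, 2109 and 1000 in Sox1-FOXA2+ libraries (log2 fold change -0.30 ± 0.52 (SE), edgeR adjusted p = 0.899). Nodal, Tbx6, Cdcp1 and Tmprss2 overlapped. Node and notochord genes had 0 of 10 called and a median of 0.481, with Noto at 0, 472 and 297 in Sox1+FOXA2+ and 11.1, 0 and 28.6 in Sox1-FOXA2+ libraries and Pkd1l1, a cilium channel of the node, at 1974, 1910 and 2326 in Sox1+FOXA2+ and 356, 102 and 1391 in Sox1-FOXA2+ libraries (log2 fold change 1.49 ± 0.85 (SE), edgeR adjusted p = 0.553). Epithelial genes had 0 of 24 called and a median of -0.511. Krt8, a keratin of simple epithelia, read 4202, 2186 and 2485 in Sox1+FOXA2+ and 8345, 10664 and 5093 in Sox1-FOXA2+ libraries with separated groups (log2 fold change -1.72 ± 0.48 (SE), edgeR adjusted p = 0.185). Its partner Krt18 overlapped (-0.35 ± 0.50 on the log2 scale, edgeR adjusted p = 0.871), as did the cadherin Cdh1 (-0.57 ± 0.78 on the log2 scale, edgeR adjusted p = 0.863) and the junction protein Dsp (0.13 ± 0.63 on the log2 scale, edgeR adjusted p = 0.974).

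Neural crest and mesenchyme genes had 0 of 21 called and a median of 0.424. Vim, the filament of mesenchymal and neural cells, read 9078, 7238 and 3043 in Sox1+FOXA2+ and 12968, 27569 and 10587 in Sox1-FOXA2+ libraries with separated groups (log2 fold change -1.68 ± 0.59 (SE), edgeR adjusted p = 0.349). Zeb1 was separated upward at 5286, 8433 and 5954 in Sox1+FOXA2+ and 2544, 2666 and 3602 in Sox1-FOXA2+ libraries (log2 fold change 0.84 ± 0.45 (SE), edgeR adjusted p = 0.516), and Fn1, Ets1 and Pdgfrb overlapped. Endothelial and blood genes had 0 of 13 called and a median of 1.26, with Pecam1, an adhesion molecule also found on ESCs, at 1335, 1745 and 1541 in Sox1+FOXA2+ and 550.2, 223 and 487 in Sox1-FOXA2+ libraries (log2 fold change 1.57 ± 0.57 (SE), edgeR adjusted p = 0.375). Runx1, a factor of blood formation, read 578, 466 and 1286 in Sox1+FOXA2+ and 4799, 745 and 3604 in Sox1-FOXA2+ libraries (log2 fold change -2.30 ± 0.77 (SE), edgeR adjusted p = 0.311). Trophoblast genes had 0 of 8 called and a median of 1.55, with Gata3, Ets2 and Elf5 overlapping. Hand1 was separated higher at 291, 36.3 and 272 in Sox1+FOXA2+ and 15.8, 0 and 0 in Sox1-FOXA2+ libraries (log2 fold change 4.98 ± 2.60 (SE), edgeR adjusted p = 0.5). Ascl2 had 297, 0 and 121 in Sox1+FOXA2+ libraries and 0 in each Sox1-FOXA2+ library, at least 61.0-fold (edgeR adjusted p = 0.375). Hox genes had 0 of 18 called and a median of 0.395, and Hoxb4, Hoxb8 and Hoxb1 overlapped.

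Genes of division and acute stress were mostly uncalled. Cell cycle genes had 0 of 30 called (all genes 0.462%) and a median of -0.0644, which was 0.172 under RLE scaling. Mki67, a marker of dividing cells, read 25763, 24491 and 24082 in Sox1+FOXA2+ and 30175, 31672 and 24412 in Sox1-FOXA2+ libraries (log2 fold change -0.52 ± 0.32 (SE), edgeR adjusted p = 0.593). Top2a, needed to separate replicated chromosomes, read 51257, 38466 and 36170 in Sox1+FOXA2+ and 31137, 39859 and 23420 in Sox1-FOXA2+ libraries (log2 fold change 0.12 ± 0.38 (SE), edgeR adjusted p = 0.953). Both overlapped between the groups, as did Cenpf, Cenpe, Mcm6 and Mcm7. Of 27 tested immediate early and stress genes 1, Hspa5, was called lower (all genes 0.366%) and 0 higher. The list median was -0.295 against 0.205 over all genes. In this list 5 members were separated lower (all genes 6.79%) and 2 higher (all genes 10.7%). The heat-shock protein Hsp90aa1 read 117795, 81456 and 58470 in Sox1+FOXA2+ and 73528, 93022 and 57895 in Sox1-FOXA2+ libraries (log2 fold change -0.07 ± 0.40 (SE), edgeR adjusted p = 0.978), and Jun, Mdm2 and Dnajb1 overlapped.

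**Figure D4:**
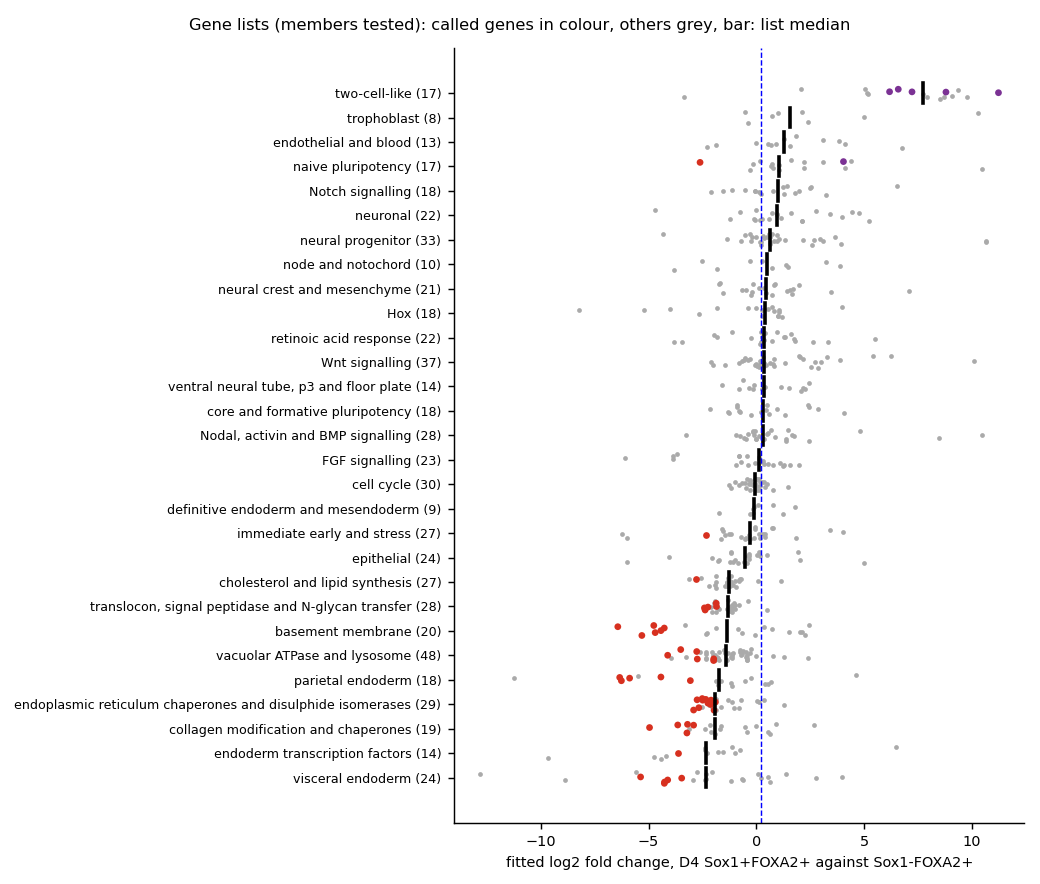
Fold change by gene list at D4, Sox1+FOXA2+ cells relative to Sox1-FOXA2+ cells. Each point is the fitted log2 fold change of 1 gene, coloured if called by edgeR's quasi-likelihood test (red lower, purple higher). Bars mark list medians, and the dashed line marks the median over all genes tested. Lists are ordered by their median. The lists of translocon, signal peptidase and N-glycan transfer, of endoplasmic reticulum chaperones and disulphide isomerases, and of vacuolar ATPase and lysosome were chosen after values were seen.

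Against Sox1+FOXA2- cells of the same day, the Sox1+FOXA2+ cells had 0 genes called by edgeR, with an unadjusted p below 0.05 for 1531 genes (6.67%) and a median of 0.0942. DESeq2's Wald test called 393 genes in this comparison, and edgeR without Sox1+FOXA2+ replicate 3 called 4. The Sox1+FOXA2+ libraries serve in both comparisons, so their fold changes are not independent and are only set side by side. The 84 genes called lower against Sox1-FOXA2+ cells had a median of -2.53 there and of -0.457 against Sox1+FOXA2- cells, 21 above 0 and 63 below. The 22 called higher had medians of 7.69 and 3.15.

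Gene by gene, the levels of Lama1, Sparc and Cubn in the 2 Sox1-positive populations overlapped, but those of Lrp2 did not. Sox1+FOXA2- cells had 3578, 1540 and 1316 counts of Lama1, and the fold change of Sox1+FOXA2+ cells against them was 0.54 ± 0.53 (edgeR adjusted p = 0.941). Sparc had 10881, 3665 and 3310 there, with -0.52 ± 0.46 (edgeR adjusted p = 0.929). Cubn had 202, 354 and 1115, with 1.34 ± 0.82 (edgeR adjusted p = 0.786). Lrp2 had 25640, 9467 and 10169 there, all above the Sox1+FOXA2+ values, with -1.45 ± 0.48 (edgeR adjusted p = 0.724). Fst (-2.85), Pth1r (-2.265) and Loxl2 (-2.23) were also below 0 without a call. Of the 84 genes called lower against Sox1-FOXA2+ cells, 63 lay below 0 here and 21 above. The endoderm factors had mostly positive fold changes, none of them called. The list median was 2.01, with Gata6 at 154, 99.99 and 115 in Sox1+FOXA2- cells and 2.24 ± 0.63 (edgeR adjusted p = 0.724). Foxa2 had 2.38 ± 1.39 (edgeR adjusted p = 0.764). Neural progenitor genes had a median of -0.972 in this comparison, and Crabp2 had -2.21 ± 0.63 (edgeR adjusted p = 0.724). Not all endoderm factors stood above the Sox1+FOXA2- level. Klf6 had 3315, 2909 and 2285 in Sox1+FOXA2- cells and -0.96 ± 0.44 (edgeR adjusted p = 0.724).

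Motifs of endoderm regulators were counted in the promoters of the called genes, without a test. GATA sites (AGATAA or TGATAA) were found in 4 of 74 promoters of genes called lower (5.41%) against 16.6% of all promoters. FOXA sites (TGTTTAC or TGTTTGC) were found in 2 (2.70%) against 7.29%, SOX sites (ACAAAG or ACAATG) in 11 (14.9%) against 25.2%, and AGGTCA in 6 (8.11%) against 14%. None was more frequent among the genes called lower than among all promoters. Of 9 promoters of genes called higher, GATA sites, SOX sites and AGGTCA were each found in 4 (44.4%) and FOXA sites in 0. For AGGTCA these were Nanog and the copies Zscan4b, Zscan4c and Zscan4f. Distal enhancers were not searched. One of the GATA matches lies before Dab2, the adaptor of the uptake receptors described above. It is shown because Dab2 kept its call in every setting (chr15:6299539-6299787, plus strand, GRCm38.p6 from RefSeq, 5′ to 3′, match in capitals).

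Dab2: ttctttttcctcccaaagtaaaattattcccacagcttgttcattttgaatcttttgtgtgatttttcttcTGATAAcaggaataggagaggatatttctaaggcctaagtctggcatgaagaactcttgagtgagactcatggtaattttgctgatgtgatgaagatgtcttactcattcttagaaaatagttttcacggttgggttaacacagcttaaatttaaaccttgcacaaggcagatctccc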

How the data were processed

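The 6 libraries compared and 6 further sorted D4 libraries are stranded SMART-Seq libraries of sorted cells, sequenced on a NovaSeq. The authors aligned reads with STAR to GRCm38, annotated with GENCODE M21, and deposited raw counts from SAMtools and featureCounts (versions not given). The table holds 55450 genes and 92 lines without a gene, which hold 0 counts. Whether reads within introns were counted is not stated. Fits used R 4.3.3 with edgeR 4.0.16 (limma 3.58.1): TMM scaling, filterByExpr (minimum count 10, minimum total 15), prior count 0.125, quasi-likelihood tests over the 12 libraries in 1 fit of 4 populations, Benjamini-Hochberg adjustment over the 22946 genes tested and calls below 0.05. Normalized counts are raw counts over the size factors of DESeq2 1.42.0 across 57 libraries. The SE is the log2 fold change over the square root of the F statistic. Where a group had 0 counts throughout, a floor of 3 counts per library (2.76 normalized counts for Sox1+FOXA2+, 2.28 for Sox1-FOXA2+) gave a lower bound of the fold change. Tables and figures used Python 3.11.15, pandas 2.3.3 and matplotlib 3.10.9. Code was tested on simulated data.

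Named genes were Foxa2 and Sox1, the 12 largest and 12 smallest fold changes among called genes with separated groups and a plain gene name (11 were available among those higher), every called gene of a list, and up to 6 members of each list with the highest mean count. The members and lists were chosen with earlier results of these data known. All 26 lists and the 3 added ones are described in the text. A few genes that the rule picks are not reported here. Alternatives were DESeq2's Wald test, RLE scaling, no filter on low counts, a replicate block, other sets of libraries in the fit and leaving out each replicate. The fit reported had no pairing, and replicate numbers entered only the replicate block. There those of Sox1+FOXA2+ and Sox1+FOXA2- libraries were taken as pairs from the data. Same-numbered libraries of these populations deviated together over 5000 genes (r of 0.185, 0.183 and 0.304).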

Additional observations from a re-analysis of the deposited data

How the results depend on the processing

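In the comparison with Sox1-FOXA2+ cells, the 106 called genes had the same sign under every setting that tested them. The count was 1090 with DESeq2's Wald test (608 higher, 482 lower), 70 with RLE scaling, 433 with no filter on low counts (198 higher, 235 lower), 67 with only the 6 libraries compared and 269 with all 57 libraries in 1 fit. With 1 library left out it ranged from 37 to 87. Robust dispersion estimates, chosen after seeing the data, gave 109, with 21 of the 106 lost and 10 of the 22 higher kept. Zscan4c, Zscan4e, Nanog, Cubn, Col4a1 and Pth1r were among those lost. The share higher was 20.8% in the fit reported, 55.8% with DESeq2, 45.7% with no filter, 10.4% with 6 libraries and 6.69% with 57. The replicate block gave 326 calls, among them all 106. Same-numbered libraries of these groups correlated at r of 0.069, 0.109 and 0.33. Those of replicates 2 and 3 correlated best with their own number and those of replicate 1 did not. The replicate 2 libraries of the 4 populations had the fewest genes detected (17482, 17477, 17421 and 16568). Whether the numbers mark a shared batch was not tested, and the fit reported holds no replicate term. The cause of these differences was not tested.

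Against Sox1+FOXA2- cells the count of 0 became 393 with DESeq2 and 61 with no filter, and ranged from 0 to 4 with 1 library left out. The replicate block, a pairing taken from the data, changed no call there and left 0. The cause was not tested.

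Of the 106 genes, 31 stayed called in all 6 leave-one-out fits (25 lower, 6 higher) and 22, all lower, in all 13 settings. Of the 37 called genes that are named by rule, 15 stayed called in every setting. Of 130 named genes not called, 53 changed sign in at least 1 setting and 24 were called in at least 1. Genes nested in others cannot be measured.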

Other observations

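The same populations were also sorted on day 2 (D2) and day 6 (D6), and their levels place the D4 values in time without a test. Gata6 held 332, 56.3 and 0 in Sox1+FOXA2+ and 365, 1288 and 1703 in Sox1-FOXA2+ libraries at D2, and at D6 2345, 1796 and 6179 in the first and 14837, 11764 and 9394 in the second. For Lama1 the Sox1+FOXA2+ values were 2147, 6631 and 4050 at D2 and 23941, 49196 and 207439 at D6, and the Sox1-FOXA2+ values 2891, 15672 and 24999 at D2 and 605983, 288349 and 284521 at D6. Cubn in Sox1+FOXA2+ cells read 65.9, 436 and 257 at D2 and 6093, 27013 and 40906 at D6, against 1151, 5647 and 1795 at D2 and 60434, 31733 and 27450 at D6 in Sox1-FOXA2+ cells. Foxa2 itself was at 1582, 1956 and 1067 in D2 and 0, 728 and 76.6 in D6 Sox1+FOXA2+ libraries, and Sox1-FOXA2+ libraries held 3241, 3057 and 1646 in D2 and 2697, 1478 and 2585 in D6. Replicates 1 and 3 of the D6 Sox1+FOXA2+ libraries thus held less Foxa2 than replicate 3 of the D4 Sox1+FOXA2- libraries (251), against the label of their sort. Whether the D6 cells expressed Sox1 could not be checked, since its counts are 0 in every library. The paper reports that the Sox1 reporter correlated well with SOX1 protein at D4 but not at D6, which limits the D6 labels.

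Genes higher in Sox1+FOXA2+ cells at D4 had other courses. Zscan4c held 30.1, 0 and 412 in Sox1+FOXA2+ and 10.8, 23.6 and 1460 in Sox1-FOXA2+ libraries at D2, and at D6 569.8, 1137 and 171 in the first and 0, 2.18 and 0 in the second. Undifferentiated ESCs at day 0 held 85.9, 3339 and 2842. Nanog read 10484, 5448 and 12561 at day 0. In Sox1+FOXA2+ cells Nanog was at 55.5, 1194 and 469 at D2 and 249.7, 488 and 2118 at D6, and in Sox1-FOXA2+ cells at 0.903, 0.983 and 117 at D2 and 55.0, 379.8 and 198 at D6. The RA-degrading enzyme Cyp26a1 was at 2007, 1405 and 1643 against 2782, 4736 and 8951 at D2 and 252, 2311 and 1334 against 15380, 7793 and 4096 at D6.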
